A study of Mus musculus with 24 samples.

Results

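Genes with very long 3′ untranslated regions (3′UTRs) were described for half-life, 4-thiouridine labelling and abundance in mouse preleukemic cells with and without Tut4 and Tut7. A gene was taken where its longest annotated 3′UTR interval spanned 4000 bases or more, the interval carried an NM_ accession, and the interval held a mean of at least 20 reads over the 24 libraries. The members were thus chosen by annotated length and by mean read count, so their read counts are given as a description. The rule found 535 genes among the 9462 with that many reads, out of 20867 genes with an interval. They were set against 7569 NM_ genes with the same read minimum and an interval of over 200 and under 4000 bases, called shorter 3′UTRs below.

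The cells came from C57BL/6 mice. The cDKO cells (Tut4/7 Vav-iCre cDKO) carried floxed alleles of both genes (fl/fl) and Vav-iCre, a recombinase active across the hematopoietic system. Littermate controls were also fl/fl for both genes and lacked the Cre. In both genotypes c-Kit-enriched fetal liver cells of embryonic day 14.5 had been transduced with Meis1 and Hoxa9 retroviruses and kept in culture. A 12 h pulse of 2.9 µM 4SU (4-thiouridine) was followed by a chase of 0, 60, 180 or 540 min, with 3 replicates per genotype and time. The labels give the chase time as a batch, and genotypes were compared within it. SLAM-seq turns incorporated 4SU into T-to-C conversions in the reads, and the T-to-C rate of a 3′UTR falls as its labelled transcripts decay. The study's methods call the replicates biological, and the labels tie none of them to an animal or embryo.

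TUT4 and TUT7 add uridines to RNA 3′ ends, on mRNAs with short poly(A) tails, where the added uridines favour decay, and on precursors of let-7 microRNAs. The 3′UTR is where microRNAs and proteins that read AU-rich or Pumilio motifs bind, and a longer 3′UTR has more room for such sites. A long 3′UTR can also hold several poly(A) signals, so that some transcripts of the gene end before the annotated end. The libraries were made from the RNA 3′ end, so a read shows that an end lay nearby and does not show that the transcript ran through the whole interval.

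The sequences that bear most on decay were read from GENCODE transcripts (GRCm39 assembly, so positions are given within the 3′UTR alone) whose 3′UTR had the same symbol, length and T content as the interval, which matched 402 of the 535 members (75.1%) and 6691 shorter 3′UTRs (88.4%). Motif shares therefore describe the matched members alone, and as a check over all 535 they are void. The 5 members with the shortest control half-lives all held at least 1 AU-rich TATTTAT. Their first site is shown, 5′ to 3′, with the motif in capitals and positions counted from the first base of the 3′UTR.
Hic2, bases 2531 to 2560: aaatactaataTATTTATctcattgtttac
Fosl2, bases 3013 to 3042: aggcacttttcTATTTATcctcttttaaga
Zfp568, bases 1557 to 1586: ctaggactctgTATTTATtgtttatacagt
Sos1, bases 1591 to 1620: tggcaactttgTATTTATtagcgagttaaa
Zfx, bases 267 to 296: tagaagttttaTATTTATtttaaaatattt
Among all matched members the motif was common, since 291 of 402 (72.4%) held it on the sense strand, against 28.4% of shorter 3′UTRs. Per kilobase members held 0.27 sites and shorter 3′UTRs 0.31. Of the 5 longest-lived members, 3 had a matched sequence, and TATTTAT occurred in Sort1 and Rps15a and not in Mlec.

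The ends of 3 of the 5 most abundant members are shown because the reads come from 3′ ends, with the last AATAAA poly(A) signal in capitals.
Cdk6, bases 10188 to 10217: tacaataaaaatgtcagtagcaAATAAAaa
Serbp1, bases 5314 to 5343: atgttttatcataccAATAAAaagcaaaca
Rps15a, bases 4694 to 4723: gtgtgtgaataaAATAAAgcatttttttta
Ncl, another of the 5 most abundant members, differed from those shown, with its last AATAAA 3647 bases before its annotated end. All motifs were searched on the sense strand of the transcript. Matched members held a median of 4 AATAAA signals, against 1 in shorter 3′UTRs, and 97.0% held at least 1, against 81.8%. Per kilobase the order was the other way, at 0.83 signals in members and 1.21 in shorter 3′UTRs. Of matched members, 75.9% had AATAAA within their last 50 bases, against 63.8% of shorter 3′UTRs. Ubn2 had the most signals, 18. The Pumilio motif TGTANATA occurred in 64.4% of matched members and 24.5% of shorter 3′UTRs, at 0.246 and 0.253 sites per kilobase.

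Since TUT4 and TUT7 act on let-7 precursors, 3 microRNAs are shown with their seed (bases 2 to 8) in capitals, from RefSeq entries on GRCm38.p6.
let-7a-5p: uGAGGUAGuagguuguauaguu
miR-155-5p: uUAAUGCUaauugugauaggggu
miR-27a-3p: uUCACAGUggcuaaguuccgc
The DNA-letter match of the let-7 seed, CTACCTC, occurred in 118 of the 402 matched members (29.4%) and in 8.73% of shorter 3′UTRs, at 0.0705 and 0.0749 sites per kilobase. Nr6a1 held the most let-7 matches, 8, and Hic2 held 4. AGCATTA, for miR-155-5p, occurred in 31.8% of matched members and 7.62% of shorter 3′UTRs, at 0.0738 and 0.0624 sites per kilobase. ACTGTGA, for miR-27a-3p, occurred in 43.8% and 14.9%, at 0.115 and 0.127 sites per kilobase. In Igf1r, which encodes the insulin-like growth factor 1 receptor, and in Hlf, a leucine zipper transcription factor, the first let-7 match is shown in capitals.
Igf1r, bases 2716 to 2745: caaacatttatCTACCTCactcttgttttt
Hlf, bases 2749 to 2778: ttgtagaaaacCTACCTCattcaaaacaaa

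The members had a median length of 4924 bases, with quartiles of 4384 and 5886. The longest was Aak1, a kinase of clathrin-mediated endocytosis, at 15929 bases (mm10, chromosome 6, 86987299 to 87003227, plus strand). Fbxl17, Strbp, Lpp and Vezt followed with 14322, 14162, 13257 and 11999 bases. Just inside the length threshold were St8sia4, a polysialyltransferase, at 4000 bases and Bambi, a decoy receptor of TGF-beta signalling, at 4004, and just outside were Tsc1 and Zfp266, 1 and 3 bases short of it. On the read threshold, Trim66 and Plekha8 were just inside with means of 20.0 and 20.2 reads, and 2900026A02Rik and Slc22a15 just outside with 19.9 and 19.5.

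Members held a median of 268 mean reads, against 213 for shorter 3′UTRs. Their T content was slightly higher, at a median of 31.0% against 29.3%. Multimapping reads were less common in members, at 2.28 ± 0.0348% of reads in control at 0 min against 7.64 ± 0.158% in shorter 3′UTRs (SD, n = 3). The interval overlapped another gene on the same strand in 4 members, among them Vezt, and on the opposite strand in 28, among them Orc3 and Asph. Some members had several separate intervals (75 genes), and here their longest was used.

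Members took a larger share of the 3′UTR reads in cDKO at 0, 60 and 180 min. At 0 min control had 5.92 ± 0.0863% and cDKO 6.33 ± 0.241% (SD, n = 3). Every cDKO library lay above every control library at 0, 60 and 180 min, and the genotypes overlapped at 540 min, at 5.99 ± 0.0472% in control and 6.02 ± 0.102% in cDKO (SD, n = 3). Cdk6, the cell cycle kinase with the most reads among members, took 0.251% in control and 0.243% in cDKO at 0 min. Without Cdk6 the shares at 0 min were 5.69 ± 0.0816% and 6.10 ± 0.237% (SD, n = 3). Since Cdk6 took slightly less in cDKO, leaving it out could not narrow the difference. The median log2 change of members at 0 min was -0.01, so the larger share does not show a rise of most members. Which members carried it was not tested. As the samples are bulk, fewer cells of a type and less RNA per cell cannot be told apart, here or below.

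Long 3′UTRs started the chase with more label than shorter 3′UTRs and ended it with less, in both genotypes. The summed rate (conversions over covered T positions, all members together) in control at 0 min was 1.84, 1.88 and 1.83% in the 3 libraries, against 1.65, 1.70 and 1.65% for shorter 3′UTRs. At 540 min it was 0.163, 0.174 and 0.158%, against 0.278, 0.298 and 0.275%. Members were above shorter 3′UTRs in every library at 0 and 60 min and below them in every library at 180 and 540 min. In control, members kept 8.91% of their 0 min rate at 540 min, and shorter 3′UTRs kept 17.0%.

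The same crossing was seen in cDKO at a lower level of label. At 0 min the summed rate of members was 0.937, 0.973 and 0.602% in the 3 cDKO libraries, all below the control libraries, and 0.114, 0.131 and 0.106% remained at 540 min. Replicate 3 was the lowest of the cDKO libraries at each time. The log2 ratio of cDKO to control in members was -1.14 at 0 min, -1.09 at 60 min, -1.10 at 180 min and -0.49 at 540 min. For shorter 3′UTRs it was -1.16, -1.11, -1.11 and -0.71, so members and shorter 3′UTRs differed by little up to 180 min, and at 540 min the ratio was nearer 0 in members. The rate taken as background, the mean cDKO rate at 540 min of 421 short-lived genes, was 0.0743%. The cDKO members' 0.117 ± 0.0128% (SD, n = 3) at 540 min was close to it. It is not the lowest rate seen, since single members lay below it. In cDKO at 540 min St8sia4 had 0.0241, 0.0259 and 0.0398%, and Cbfa2t3 0.0410, 0.0409 and 0.0458%.

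**Figure D1:**
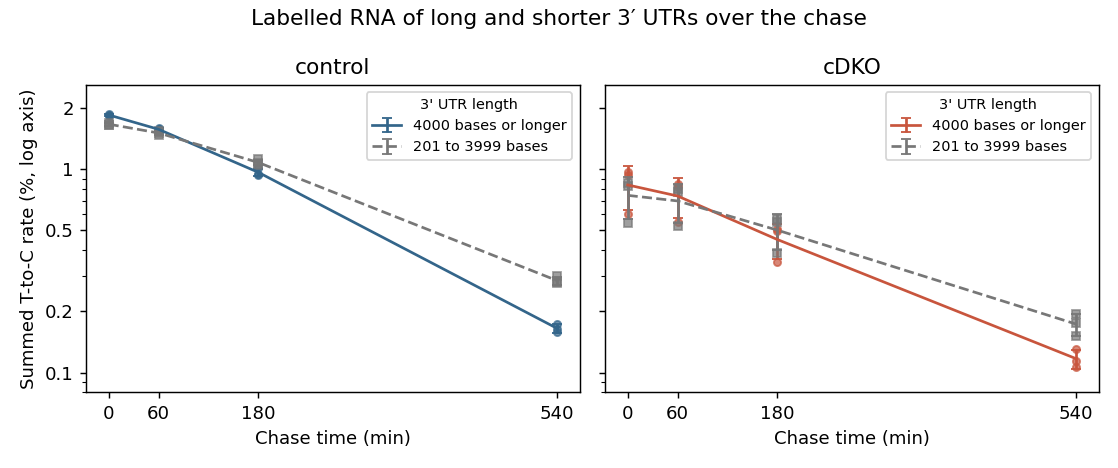
Summed T-to-C rate in percent (log axis) against chase time in min for long and shorter 3′UTRs, with 1 point per library and lines through the means ± SD of 3 libraries, in control (left) and cDKO (right). In both genotypes the long 3′UTRs lie above the shorter ones at 0 min, at 1.85% against 1.67% in control, and below them at 540 min, at 0.165% against 0.283%.

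In edgeR no member was called different between genotypes in labelling at 0 min once each library's overall rate was taken into account. Of 504 members tested, 0 were called higher and 0 lower (edgeR quasi-likelihood test, adjusted p under 0.05), where 0.288% and 0.0345% of all genes tested were called. At an unadjusted p under 0.05 there were 30 members, 5.95%, where all genes tested gave 7.92%. DESeq2 called 2 of the 56 members it gave an adjusted p (3.57%), and 31 of the 603 genes in all (5.14%). The median log2 difference of the 504 members in edgeR was 0.04. Without the library's overall rate in the model, 447 of the 504 were lower in cDKO, and 84.3% of all genes tested were.

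Half-lives were shorter in long 3′UTRs than in shorter 3′UTRs. A single exponential fitted to the rates gave 225 members a half-life past the filters, with a control median of 149.8 min (quartiles 109 and 230.3) and a cDKO median of 169 min. The 2907 shorter 3′UTRs had medians of 218 and 243 min. Fitted to replicates on their own, the control medians of members were 159, 149.9 and 141 min, and those of shorter 3′UTRs 213, 221 and 211 min. The replicate medians of the 2 classes did not overlap in either genotype. The log2 ratio of the members' median to that of shorter 3′UTRs was -0.54 in control and -0.52 in cDKO, a description with no test. Straight lines through the log rates with their own intercepts gave -0.14 and -0.18. With the bound on the spread at 0 min left out, 510 members had medians of 145 and 166 min, and 7293 shorter 3′UTRs 193 and 226 min.

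In control, median half-life was lower in longer 3′UTRs up to 3000 bases and differed little above that length. The control median went from 273 min in 3′UTRs under 500 bases through 233, 199 and 169 min to 149 min between 3000 and 4000 bases. Among members it then stayed at 151 min (4000 to under 5000 bases, 120 genes), 147 min (5000 to under 6000, 51 genes), 149 min (6000 to under 8000, 36 genes) and 155 min (8000 or more, 18 genes). Within the members, the rank correlation of length with control half-life was 0.02 over 510 genes, which share libraries and are not independent. In cDKO the medians were lower in each longer class, at 315, 266, 229.9, 190, 184, 177, 164, 159 and 154 min. From 4000 bases up this order was not seen with the bound on spread left out, at 165, 163, 173 and 168 min.

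**Figure D2:**
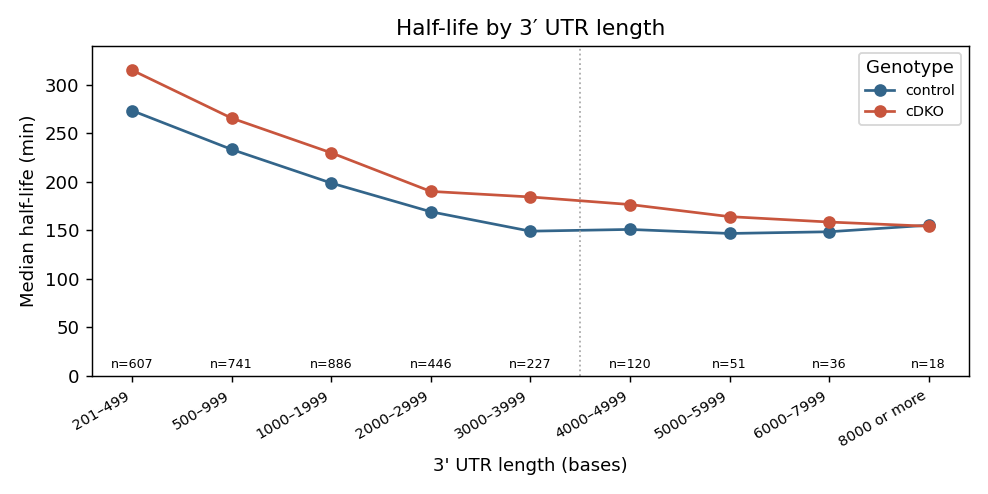
Median half-life in min against 3′UTR length in bases for control and cDKO, with 1 point per length class, n the number of genes with a half-life, and a dotted line at 4000 bases. Control medians fall from 273 min to 149 min below the line and lie between 147 and 155 min above it.

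The shorter half-lives of members were seen at every level of reads. When genes were split at the quartiles of the members' mean reads, with the bound on spread left out, control medians of members were 105, 132, 133 and 208 min from the lowest to the highest range. Shorter 3′UTRs of the same read ranges had 143, 173, 214 and 267 min. Members with more reads had longer half-lives, with a rank correlation of 0.34 over 510 genes.

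**Figure D3:**
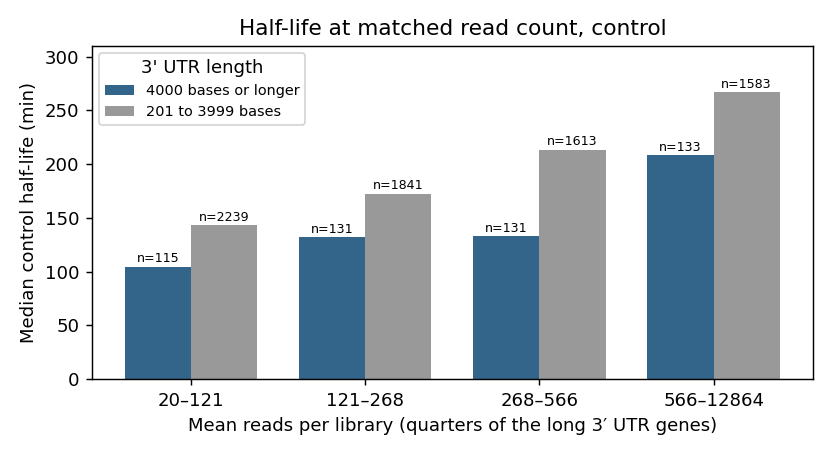
Median control half-life in min (bars from 0) of long and shorter 3′UTRs within 4 ranges of mean reads per library, with n the number of genes. The bar of the long 3′UTRs is lower in each range, from 105 against 143 min to 208 against 267 min.

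Members ranged widely among themselves. Of the 225, 3 had a control half-life under 60 min, 71 lay between 60 and 120 min, 104 between 120 and 240 min, 42 between 240 and 360 min, and 5 above. Hic2, a zinc finger repressor of transcription, was the shortest at 44.4 min (mm10, chromosome 16, 17259169 to 17263430, plus strand). Its rate in the control libraries was 1.77, 2.15 and 1.39% at 0 min and 0.833, 0.433 and 0.649% at 60 min, so all 3 libraries were lower after 1 h of chase. Fosl2, an AP-1 factor, followed at 55.8 min, Zfp568, a zinc finger protein, at 58.1 min, Sos1, the exchange factor that activates Ras, at 64.3 min and Zfx, an X-linked zinc finger protein, at 64.6 min. Replicate half-lives of Hic2 ran from 27.8 to 62.8 min in control, at 18.1 ± 1.30 CPM (SD, n = 3), where CPM scales the reads of a gene's interval to the library's reads in 3′UTRs.

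At the other end, Rps15a, a ribosomal protein gene, had the longest control half-life, 882 min. Its replicate values ran from 557 to 4963 min, so only a slow decay can be read, and its interval covers 40.1% of the gene's span, as that of Ncl covers 40.0%. Whether introns or other sequence outside the usual 3′UTR lie in these intervals was not tested, and their half-lives and ends are those of the interval as annotated. Its rates in the control libraries were 0.693, 0.984 and 0.880% at 0 min, lower than those of most members, and 0.632, 0.583 and 0.535% at 540 min. Hnrnpd, which encodes the AU-rich element binding protein AUF1, had 388 min, Sort1, the sorting receptor sortilin, 387 min, Mlec, an endoplasmic reticulum lectin, 386 min, and Orc3, a subunit of the origin recognition complex, 362 min. Mlec had replicate values of 369, 399 and 389 min in control, the closest agreement of these 5.

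The most abundant members lay between these ends. Cdk6 (mm10, chromosome 5, 3520792 to 3531008, plus strand) had 214 min in control and 257 min in cDKO. Its rates went from 1.86, 1.87 and 1.86% at 0 min to 0.161, 0.138 and 0.116% at 540 min in the control libraries, and from 0.879, 0.978 and 0.560% to 0.124, 0.124 and 0.101% in the cDKO libraries. Serbp1 (an mRNA-binding protein), Ncl (nucleolin) and Celf2 (a splicing regulator) had 294, 303 and 252 min in control. The longest 3′UTR, in Aak1, had 129 min in control and 141 min in cDKO.

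In control, matched members with TATTTAT or the Pumilio motif had somewhat lower median half-lives than those without, and the let-7 match made little difference. Those with TATTTAT had a control median of 144 min (275 genes) and those without 160.4 min (108 genes), while shorter 3′UTRs differed more, at 156 min with the motif and 212 min without. With the Pumilio motif the members' median was 140.2 min and without it 159 min. For the let-7 match the medians were 149.6 and 146 min. The median log2 ratio of cDKO to control half-life was 0.07 with a let-7 match (113 members) and 0.19 without (270 members), and in shorter 3′UTRs it was 0.19 with and 0.20 without. Split by number of TATTTAT sites (0, 1, 2 to 3, and 4 or more), members had control medians of 160, 144, 140 and 161 min. Their cDKO medians were lower with each step, at 180, 174, 161 and 139 min, with 28 genes in the last. All these are descriptions over genes with the bound on spread at 0 min left out, with no test. Among shorter 3′UTRs past that bound the control median also fell with length, from 273 min under 500 bases to 149 min from 3000 bases. The part of length in the motif splits was not tested.

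Half-lives were longer in cDKO for most members, to a degree much like that of shorter 3′UTRs. Of the 225, 148 (65.8%) were longer in cDKO, with a median log2 ratio of 0.14, against 68.7% and 0.19 for shorter 3′UTRs. The replicate medians of members were 169.9, 172 and 172 min in cDKO, all above the 141 to 159 min of control. Examples were Soga1 (77.1 min in control, 195 min in cDKO) and Zfx (64.6 and 118 min), whose replicate half-lives lay apart between genotypes. Strbp (295 and 197 min) and Sort1 (387 and 348 min) had the opposite order, but replicate values overlapped, from 219 to 390.2 min in control and 93.8 to 417 min in cDKO for Strbp and from 329 to 432 min and 194 to 470.5 min for Sort1. Among the 225, 35 were longer in cDKO by over 1.5-fold and 13 were shorter by as much. The genotype difference depended on the background taken: with the rate of the short-lived genes subtracted, medians were 137 and 144 min and the log2 ratio was 0.08, and with 0.001 subtracted the cDKO median lay below that of control, at 131 against 134 min, with a ratio of 0.031. The ratio was 0.07 without cDKO replicate 3 and 0.30 from straight lines through log rates.

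In the test of decay itself, the genotype by hour interaction on conversions, 0 of 509 members were called slower and 0 faster in cDKO (edgeR adjusted p under 0.05), where 0.11% and 0.0% of all genes tested were called. At an unadjusted p under 0.05 there were 119 members, 23.4%, where all genes tested gave 17.1%, and the members' median interaction was 0.07 log2 per h, the same as that of shorter 3′UTRs. The replicate numbers pair the cDKO libraries across chase times, and with genotype and replicate number as a block 9 members were called, all slower in cDKO, where 0.572% of all genes tested were called. These were Zbtb44, Dio2, Pgpep1, Cdk6, Celf1, Btg1, Klhdc10, Dnmt3a and Prdm2, named after their values were seen. DESeq2 called 20 of 506 members, where 2.18% of all genes tested were called, and without control replicate 2 edgeR called 1. In edgeR 0 members were called with the rate of short-lived genes subtracted, with the library-wide rate in the offset, or without the 540 min libraries. All genes tested then gave 0.033, 0.13 and 0.011%. Among the 9, with the bound on spread left out, Klhdc10, an adaptor of a ubiquitin ligase, had 237 min in control and 435 min in cDKO. Btg1, an antiproliferative factor, had 145 and 259.7 min.

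Members were called different in transcript level more often than all genes tested, a description with no test of the class. The shares were larger in both directions at 0, 60 and 180 min, and at 540 min mainly among falls. At 0 min, 55 of 533 members tested rose in cDKO and 47 fell (edgeR adjusted p under 0.05), where 6.69% and 6.59% of all genes tested were called. At 60 min, 72 rose and 67 fell of 534, against 9.76% and 10.2%. At 180 min, 66 rose and 72 fell of 533, against 8.83% and 10.0%. At 540 min, 52 rose and 87 fell of 533 (9.76% and 16.3%), against 8.99% and 10.2%, so rises were near the share of all genes. The larger share of falls at 540 min was not particular to members. Among shorter 3′UTRs of 3000 to under 4000 bases, 37 rose and 86 fell of 571 at that time, with a median log2 change of -0.07.

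In percent, members were called in 19.1% of tests at 0 min and 26.1% at 540 min, and shorter 3′UTRs in 12.9% and 19.0%. The median log2 change of members was -0.01, 0.01, -0.05 and -0.06 at 0, 60, 180 and 540 min, where it was 0.01 at each time for shorter 3′UTRs. Among members, 25 held under 20 mean reads in 1 genotype and reached the minimum through the other. The 510 with at least 20 mean reads in each genotype gave 46 higher and 43 lower at 0 min (17.5%) and 42 and 82 at 540 min (24.3%). All genes tested with that minimum gave 11.6% and 17.9%. Higher at 540 min were 8.24% of these members and 8.09% of all genes with that minimum. Calls were more common among genes with more reads. In the range with the most reads 30.6% of members and 16.9% of shorter 3′UTRs were called at 0 min, and in the range with the fewest 15.2% and 11.3%. In the second lowest range 18.8% and 16.6% were called at 540 min, where 15.0% and 9.46% were called lower. At 0 min the count of 102 members became 161 without cDKO replicate 2, and 54, 49 and 53 without control replicate 1, 2 or 3. The share of all genes tested moved the same way, from 13.3% to 21.2%, and to 6.72, 6.14 and 6.68%. At 180 min the members' count went from 138 to 83 and 90 without control replicate 1 or 2, and at 540 min from 139 to 87 and 85 without control replicate 1 or 3. Over all genes tested these shares went from 18.8% to 11.1 and 11.1%, and from 19.2% to 11.1 and 12.0%.

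**Figure D4:**
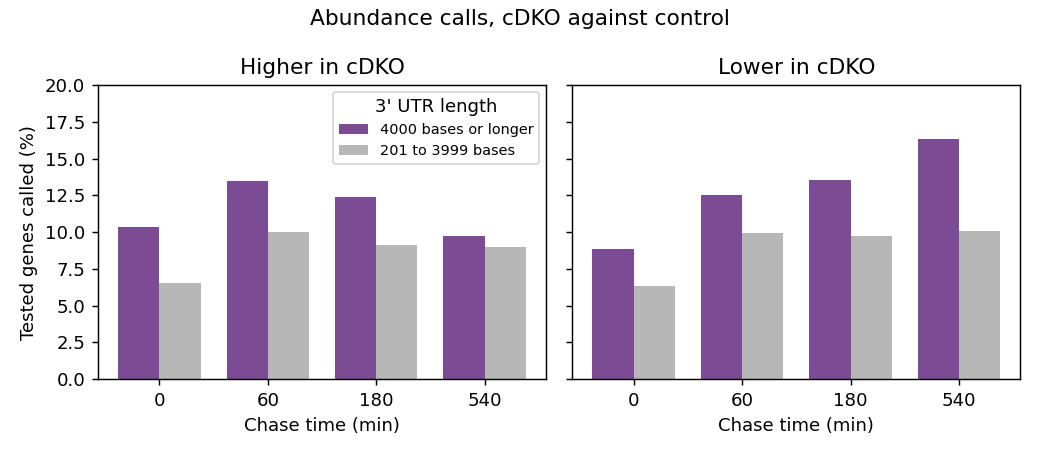
Percent of tested genes called higher (left) or lower (right) in cDKO by edgeR at each chase time in min, for long and shorter 3′UTRs, as bars from 0. Bars of the long 3′UTRs are higher at each time. At 540 min the higher calls are 9.76% against 8.97%, and the lower calls reach 16.3% against 10.1%.

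Over all 4 times, 33 members were higher and 33 lower at each of them, of 531 tested throughout (6.21% each), where 3.89% and 4.47% of all genes tested were. Because the replicate numbers pair the cDKO libraries across times, the 4 times are not independent repeats. The higher members include Hlf and Bicd1, which reached the read minimum through cDKO alone. These counts were not repeated on the 510 members with that minimum in each genotype. Of the 33 lower members, 13 lie on chromosome 3, which holds 34 members in all, and of all 437 lower genes 143 lie there. The members of chromosome 3 had median log2 changes of -0.44, -0.40, -0.47 and -0.49 in the order of the chase times, and those elsewhere 0.01, 0.02, -0.02 and -0.03. Shorter 3′UTRs of chromosome 3 had -0.52, -0.48, -0.55 and -0.52. Without chromosome 3, the members that fell numbered 31, 47, 50 and 66 of 499 or 500, and those that rose 55, 72, 65 and 52. Over all genes outside it, 480 of 9588, 784 of 9547, 761 of 9540 and 778 of 9661 were lower. Of the same genes, 656, 958, 865 and 898 were higher.

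Among members with at least 10 reads in each library, those with the largest sustained rises encode a protease, regulators of transcription and survival, and membrane proteins. Hlf and Bicd1, which fall short of that limit, are given further on. Ctsc, the protease cathepsin C, had 27.7, 32.5 and 36.7 CPM in the control libraries at 0 min and 239, 121 and 397 CPM in the cDKO libraries. All cDKO libraries were above all control libraries, and replicate 2 was the lowest of them (log2 change 2.97, SE 0.36, edgeR adjusted p = 0.00103). Bcl2, which protects against apoptosis, had 49.6, 44.3 and 48.7 CPM in control and 166, 159 and 248 CPM in cDKO (2.02, SE 0.17, edgeR adjusted p = 1.8e-04). Mllt3, a reader of acylated histones that is fused to MLL in some leukemias, had 6.58, 8.83 and 6.98 CPM in control and 34.9, 27.0 and 59.0 CPM in cDKO (2.44, SE 0.30, edgeR adjusted p = 0.00107).

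Pcdh7, a protocadherin, rose by 2.25, Tle1, a corepressor, by 1.71, and Asph, an aspartyl hydroxylase, by 1.43 on the log2 scale at 0 min. At 540 min their changes were 1.40, 1.65 and 1.46, and Bcl2 and Mllt3 were at 1.69 and 1.64. Tle1 had 14.4, 14.1 and 14.5 CPM in cDKO at 0 min, with little spread, while Pcdh7 had 31.5, 19.9 and 63.1 CPM, where replicate 3 was highest as for Ctsc, Mllt3 and Bcl2. The call of Asph at 0 min was lost without cDKO replicate 3, without any 1 of the control replicates and with the replicate number as a block, where its adjusted p reached 0.137. Tle1 at 180 min lost its call without cDKO replicate 1 or without control replicate 1 or 2, and Pcdh7 at 540 min without control replicate 1 or 2 and at 180 min without control replicate 2.

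Under the same limit, the largest sustained falls included that of Tcf4, a basic helix-loop-helix transcription factor. It had 52.1, 59.9 and 52.8 CPM in control at 0 min and 12.8, 8.47 and 9.64 CPM in cDKO (log2 change -2.41, SE 0.18, edgeR adjusted p = 1.1e-04). The fall was -3.06 at 540 min, where control had 63.2, 83.6 and 64.3 CPM and cDKO 10.7, 7.35 and 7.30 CPM. Sort1, on chromosome 3, had 188, 199.8 and 207 CPM in control at 0 min and 67.6, 60.0 and 81.7 CPM in cDKO (-1.49, SE 0.12, edgeR adjusted p = 1.5e-04). This is a larger difference than the chromosome's median. Fam102b, also on chromosome 3, fell by 1.21, Soga1 by 1.49 and Raph1, a regulator of the actin cytoskeleton, by 0.90 on the log2 scale at 0 min. Trp53inp1, a p53-induced gene, fell from 26.3, 21.8 and 28.1 CPM to 5.71, 9.18 and 11.6 CPM. At 540 min its call was lost with the block, without cDKO replicate 1 or 2 and without control replicate 2 or 3, and that of Soga1 without control replicate 1 or 3. Raph1 had 52.8, 47.4 and 49.0 CPM in control and 22.8, 27.2 and 28.9 CPM in cDKO at 0 min, and its change was -1.66 at 540 min.

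**Figure D5:**
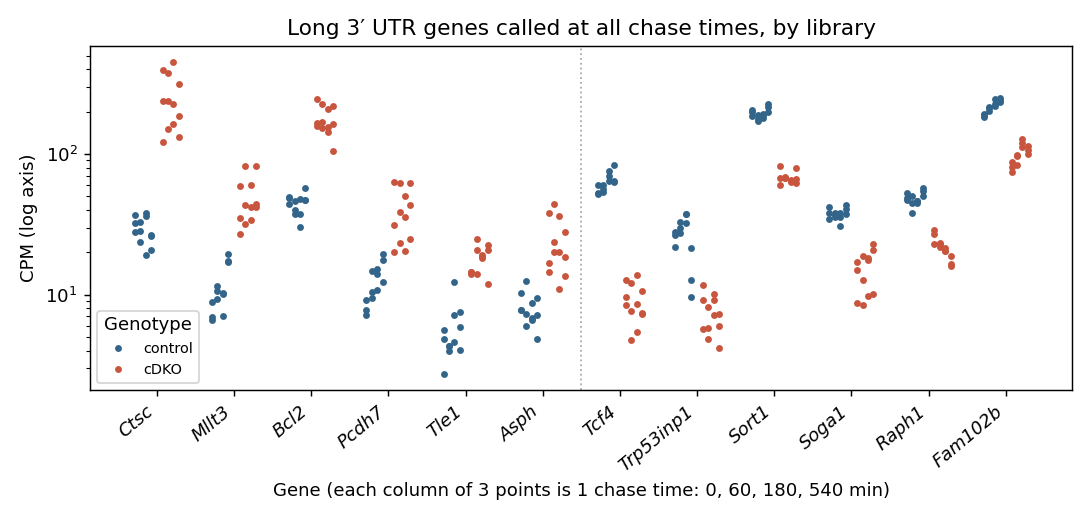
CPM (log axis) of 6 long 3′UTR genes called higher (left of the dotted line) and 6 called lower in cDKO at all 4 chase times, with 1 point per library and the chase times side by side within each gene. Points of Ctsc, Bcl2, Tcf4 and Sort1 form separate bands by genotype at each time, and for Ctsc at 0 min these are 27.7 to 36.7 CPM in control and 121 to 397 CPM in cDKO.

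Hlf and Bicd1 had no read in any control library at 0 min. They reached the mean read minimum through cDKO alone, so their values are a description. Hlf had 105, 27.2 and 242 CPM in the cDKO libraries at 0 min and at most 0.186 CPM in any control library. Bicd1, an adaptor of dynein, had 19.4, 15.0 and 30.5 CPM. In both genes cDKO replicate 3 was highest and replicate 2 lowest, and the spread was wider in Hlf.

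The 20 members that act in RNA silencing and other post-transcriptional control decayed with a median half-life of 169.97 min (control) and 203 min (cDKO). For this group and those that follow, half-lives are given with the bound on spread at 0 min left out. At 0 min 4 of them rose and 1 fell, and at 540 min 1 rose and 4 fell. For this group and those that follow, all genes tested gave 6.69% higher and 6.59% lower at 0 min and 8.99% and 10.2% at 540 min, and groups this small are described and not set apart from it. Msi2, an RNA-binding protein of hematopoietic stem cells, rose at all 4 times, from 241 ± 9.7 to 580 ± 264 CPM at 0 min (SD, n = 3). Ddx6, a helicase of mRNA decapping, rose at 0 min, from 338 ± 15.4 to 469.5 ± 25.1 CPM, as did Ago2, the microRNA effector, from 129.8 ± 5.01 to 167 ± 12.0 CPM (SD, n = 3 for both). Mbnl3, a splicing regulator, was called at 0 min (log2 change 0.41, edgeR adjusted p = 0.0355) and lost the call without any 1 of the control replicates or cDKO replicate 1, with the block and with upper quartile normalization. Eif4e, the cap-binding translation factor, fell, and it lies on chromosome 3. Celf2 and Srsf1, a splicing factor, were not called at any time, with log2 changes of 0.04 and 0.06 at 0 min, and the median change of the group was 0.02, where that of all genes tested was 0.01.

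The 19 members that are chromatin or transcription factors decayed with a median half-life of 118 min (control) and 157 min (cDKO) over the 16 with a value. At 0 min 4 rose and 4 fell. The risers were Ikzf2, Dnmt3a and Cbfa2t3, beside Hlf, which reached the read minimum through cDKO alone. The fallers were Runx1, Tcf4 and Zeb2, a zinc finger repressor, beside Mef2c, a MADS-box factor of myeloid and lymphoid cells. Calls of Hlf and Mef2c in these directions go with how they passed the minimum and are a description. Ikzf2 (Helios), of the Ikaros family, went from 8.20 ± 5.04 CPM in control to 474 ± 86.1 CPM in cDKO, and Dnmt3a, a DNA methyltransferase, from 54.8 ± 3.04 to 88.3 ± 11.6 CPM (SD, n = 3 for both). Runx1, a transcription factor of blood stem cells, went from 208 ± 14.1 to 109 ± 6.48 CPM, and Mef2c, which reached the read minimum through control alone, from 17.8 ± 5.05 to 0.149 ± 0.129 CPM (SD, n = 3 for both). Foxp1, the most abundant of them, was called at 60 and 180 min (log2 changes 0.41 and 0.33) and not at 0 or 540 min (0.30 and 0.21). Cbx5, a heterochromatin protein, was called at 540 min alone (0.33). The 180 min call of Foxp1, the 0 min call of Cbfa2t3 and the call of Cbx5 were each lost without any 1 of the control replicates. The group's median change at 0 min was 0.07.

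The 17 members of growth signalling, cell cycle and survival had median half-lives of 137 and 161 min, with 4 risers and 1 faller at 0 min. The risers were Bcl2, Ccnd2, Pik3r1 and Prkca, and the faller was Pik3ca, the catalytic subunit of PI3 kinase, which lies on chromosome 3. Ccnd2, cyclin D2 and a partner of Cdk6, had 644, 720.5 and 672 CPM in control and 1044, 942 and 821 CPM in cDKO at 0 min. All its cDKO libraries were above all control libraries (log2 change 0.48, SE 0.10, edgeR adjusted p = 0.0163), and the call was lost without cDKO replicate 1 or any 1 of the control replicates. Cdk6 itself had 2439.6, 2573 and 2521 CPM in control and 2468, 2362 and 2458 CPM in cDKO, with overlapping libraries (-0.03, SE 0.07, edgeR adjusted p = 0.832). Igf1r was not called at any time, and the median change of the group at 0 min was -0.03.

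The 7 members of ubiquitin, membrane traffic and transport had median half-lives of 146 and 174 min. At 0 min Usp31, a deubiquitinase, rose (0.72) and Snx27, a sorting nexin on chromosome 3, fell (-0.55), and Rab8b and Dennd1b were not called at any time. The group's median change was 0.23 at 0 min and -0.24 at 540 min.

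Of the 5 longest 3′UTRs, Strbp was called higher at 0, 60 and 540 min (log2 change 0.48 at 0 min, edgeR adjusted p = 0.0256), a call lost at 0 min with the block or without any 1 of the control replicates, at 60 min in 7 alternatives including those, and at 540 min without control replicate 1 or 3. Lpp was lower at 540 min (-1.54, SE 0.25, edgeR adjusted p = 0.00312). Lpp, a focal adhesion protein, had 38.9, 36.1 and 39.0 CPM in control and 23.5, 4.94 and 29.4 CPM in cDKO at 0 min, so replicate 2 stood well below the other cDKO libraries. Aak1, Fbxl17 and Vezt were not called at any time. St8sia4, at the length threshold, had 216, 223 and 226 CPM in control and 566, 571 and 862 CPM in cDKO at 0 min (1.60, SE 0.16, edgeR adjusted p = 3.1e-04).

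The targeted genes are not members, with 3′UTRs of 630 bases for Tut4 and 981 for Tut7. Tut4 had 68.1, 75.2 and 86.3 CPM in control and 17.8, 30.2 and 18.6 CPM in cDKO at 0 min, and Tut7 40.1, 34.6 and 44.4 CPM and 16.7, 19.1 and 20.2 CPM, lower in every cDKO library. Reads in 3′UTRs numbered 4380235 to 7041311 per library. Markers of other cell states also moved with genotype: summed CPM of 12 progenitor and myeloid markers ranged over 8154 to 9144 (control) and 2481 to 3681 (cDKO), and that of 8 erythroid markers over 0.372 to 3.07 and 1307 to 2091, nearly all of it 1 globin gene, Hbb-bt, with Epor at 0 in every library and Gata1 at a median of 0 in both genotypes. The progenitor sum was mostly Mpo, Elane, Prtn3 and Ctsg, lower in cDKO, while medians of Cebpa were 147 and 175 CPM and of Cd34 20.1 and 27.6 CPM. Mast cell and basophil markers (6 genes) had 15.8 to 34.5 and 132 to 247 CPM, where Cpa3 and Gata2 were higher in cDKO, Mcpt8 had medians of 14.6 and 9.89 CPM, Ms4a2 6.17 and 5.98 CPM, and Fcer1a was at 0. Megakaryocyte markers (3 genes) had 2.40 to 9.49 and 7.32 to 23.7, where Itga2b was higher in cDKO and Pf4 and Gp9 had lower medians. B cell markers had at most 0.529 and T cell markers 0, and a list of 4 stromal, epithelial and endothelial markers had 55.4 to 122 and 262 to 497, in which Pecam1 alone had a median above 1 CPM. Their part in the abundance differences of members was not tested.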

How the data were processed

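SLAM-seq libraries (QuantSeq 3′ FWD, single reads) of 24 samples were used. Per the file headers, the authors ran SlamDunk (version 0.4.3) on mm10 3′UTR intervals (GRCm38 per the labels), and the deposited tables hold whole-number counts of reads, of covered T positions and of T-to-C conversions per interval. Interval length and T content, other deposited columns, were used as given, whether strand was used in counting is not given in the sources used here, and the deposited rates and CPM were not used. Table lines numbered 39419, of which 39096 (99.18%) matched a RefSeq symbol (GRCm38.p6). Overlapping intervals of a gene were reduced to the longest, and counts of the gene's longest interval were used. CPM scales them to the library's reads in kept intervals.

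Abundance was tested at each chase time with the edgeR quasi-likelihood test (edgeR 4.0.16, R 4.3.3, TMM, filterByExpr, Benjamini-Hochberg over all genes, threshold 0.05). Labelling and decay were tested on conversions with log coverage as offset, for genes covered at 100 or more T positions per library and with 50 conversions in all, with DESeq2 1.42.0 as an alternative. The standard error is the log2 change over the root of the F statistic. Half-lives came from a single exponential fitted to rates divided by the genotype's 0 min mean, with an SD below 0.3 at 0 min. Scripts were tested on simulated data. Libraries carry no molecular identifiers.

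Members and lists were chosen with earlier results of these data known. Named genes are the 5 longest, 5 most abundant, 5 longest-lived and 5 shortest-lived members, the 6 most changed each way among members with at least 10 reads in each library and called at all times, members without reads in 1 genotype, all called in labelling or decay, and the 3 most abundant of each list. Other genes, among them the called members of the lists, were named after their values were seen. Some genes that these rules name are not reported here. Chi-square per degree of freedom between replicates was 3.34 to 27.1, so no library was counted as a duplicate. Deviations of same-numbered libraries correlated at -0.06 to 0.09 between genotypes, -0.03 to 0.12 between times in control and 0.25 to 0.73 between times in cDKO. Numbers therefore pair cDKO libraries across times, and not genotypes. Alternatives covered normalization, filters, tool, background, length and read thresholds, and each library left out.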

Additional observations from a re-analysis of the deposited data

Results flagged for a closer look

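Hic2, the shortest-lived member, lay in every cDKO library below the control mean at 0 min and in every cDKO library above it at 540 min. The libraries of the genotypes overlapped at both times. At 0 min control had 16.6, 18.6 and 19.1 CPM and cDKO 16.7, 16.8 and 17.3 CPM. At 540 min control had 14.4, 22.1 and 12.8 CPM and cDKO 19.5, 20.3 and 17.8 CPM. The log2 change was -0.08 at 0 min and 0.22 at 540 min, a difference of 0.305, which was not tested. It was called at neither time, with edgeR adjusted p-values of 0.819 and 0.575.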

How the results depend on the processing

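Of the recomputed member counts and class values, 180 stayed within 1.5 times the count or 1 SD of the value and 51 moved. Of 2101 recomputed log2 changes of named genes, 83 lost the call, 32 gained it and 75 changed sign, none of those 75 called in either fit. With 20 reads required in each genotype, an alternative chosen after seeing the data, called members numbered 89, 125, 122 and 124 by time. These were 17.5, 24.5, 23.9 and 24.3% of those tested, where all genes with that minimum gave 11.6, 18.6, 17.6 and 17.9%. Called members at 0 min numbered 157 with all 24 libraries in 1 fit, where 21.1% of all genes tested were called. With each library left out in turn they numbered 49 to 161 at 0 min, 83 to 149 at 180 min and 85 to 137 at 540 min. All genes tested then gave 6.14 to 21.2%, 11.1 to 20.7% and 11.1 to 19.6%. Labelling at 0 min gave 2 members with DESeq2, 447 without the library-wide rate and 0 to 1 with a library left out. The decay interaction gave 20 with DESeq2, 9 with the replicate block and 0 to 1 with a library left out. The block gave 75 members in abundance at 0 min and 0 in labelling, where 10.5% and 0.311% of all genes tested were called. The replicate numbers pair cDKO libraries across times, and between genotypes they are only shared numbers.

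The control half-life median was 134 min with 0.001 subtracted from rates, 137 min with the rate of short-lived genes subtracted, 135 min with that and no SD bound, and 134 min in the log-linear fit. The cDKO median was 131, 144, 145 and 165 min under these settings, the first of them below control, 166 min without the SD bound, 172 min at coverage of 500 or in genes with 1 interval, 174 min with each replicate's own 0 min rate, 170.5 min without the 540 min libraries, 177 and 159 min at lengths from 3000 and 6000 bases, 173 min at 100 reads, 174 min in matched members, and 159.7 to 173 min with a library left out. The log2 ratio of genotypes was 0.031 with 0.001 subtracted and 0.30 in the log-linear fit. The log2 ratio of members to shorter 3′UTRs was -0.14 (control) and -0.18 (cDKO) in the log-linear fit, -0.77 and -0.80 without the 540 min libraries, -0.42 in control without the SD bound, -0.43 with the subtraction as well, and -0.61 in cDKO from 6000 bases. For summed rates it was 0.085 at 0 min and -0.21 at 540 min as the median of genes in control, -0.19 at 540 min in cDKO, and 0.18 and -0.83 in control without the 10 members of most coverage. The cause of these shifts was not tested. In cDKO at 540 min rates neared the background rate taken from short-lived genes.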
